A study of Rattus norvegicus with 2 samples.

Results

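The interferon genes described here were 38 genes listed by name. They were the ligands, receptors, kinases and transcription factors of interferon signalling together with interferon-stimulated effectors and their inhibitors. These genes were chosen by their known roles, with earlier results of these data known. A probe was taken as a member when the RefSeq accession or name printed for it carried one of these symbols or a current alias. Of the 38 genes, 26 were found on the array, with 32 of its 41009 probes. The other 12 were not analysed here, namely Ifnar1, Ifnar2, Ifngr2, Jak1, Tyk2, Irf4, Irf5, Irf8, Isg15, Ifih1, Ddx58 and Gbp5.

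Whole blood was collected from male rats that had received lavender oil (LO), distilled from Lavandula angustifolia, into the stomach at 5 mg/kg in 10% ethanol, and from control rats that had received the 10% ethanol diluent alone (0 mg/kg), with 6 rats in each group, dosing once a day for 13 days and sampling on day 14. The age of 7 weeks given for the rats applies before dosing and not at blood collection. RNA was pooled within each group, and both pools were hybridised together on 2 Agilent rat whole genome arrays, array 1 with LO in Cy5 and control in Cy3, and array 2 with the dyes exchanged. The sample labels give the strain as Wistar in one field and as F334 elsewhere and list heart and portal vein as sources of the blood, whereas the study's methods give Fischer F334 and the heart alone. Since both arrays carry the same RNA with exchanged dyes, they form a technical dye swap and hold 1 replicate of the comparison, no spread between rats and no test between LO and control.

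Interferons are secreted proteins with which infected or activated cells warn their neighbours. Their receptors switch on Janus kinases, these phosphorylate STAT proteins, and the STAT proteins, alone or with an interferon regulatory factor, bind short DNA elements near the genes they induce. The element bound by the STAT and Irf9 complex is the interferon-stimulated response element (ISRE), and that bound by STAT dimers is the gamma-activated site (GAS). Leukocytes of the blood carry interferon receptors, and blood levels of the induced genes are widely used as a readout of interferon exposure.

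The promoter windows of the members were read first, since the ISRE core is a sequence that many, though not all, of the induced genes share. A window of 300 bases, from 250 before to 50 after the gene start, was held in the RefSeq table of build GRCr8 for 30 of the 38 members. The letters GAAANNGAAA, searched on both strands with overlapping matches allowed, were present in 11 of these 30 windows (36.7%) and in 1312 of all 33469 windows in that table (3.92%). Among effectors, RNA sensors and feedback inhibitors 10 of 14 windows held them (71.4%), against 1 of 16 (6.25%) among ligands, receptors, kinases, STAT factors and interferon regulatory factors. That 1 gene was Irf7, which drives interferon transcription and is itself interferon-induced. The GAS letters TTCNNNGAA were present in 7 of 30 member windows (23.3%) and 2970 of all windows (8.87%). These counts describe letters in a window, not bound sites.

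The 6 windows shown were taken from genes measured on the arrays. Bst2, Oas1a and Socs1 each held a pair of overlapping ISRE cores, Irf7 was the only signalling gene with a core, and Gbp2 and Rsad2 are effectors that recur in the results. Each window is 60 bases, written 5′ to 3′ on the strand of the gene, and the capitals mark the core or, where it lies on the other strand, its reverse complement.
Bst2: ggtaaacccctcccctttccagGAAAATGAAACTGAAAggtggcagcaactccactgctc
Oas1a: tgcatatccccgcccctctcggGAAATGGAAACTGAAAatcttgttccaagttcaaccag
Socs1: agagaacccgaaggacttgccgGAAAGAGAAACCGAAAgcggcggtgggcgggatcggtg
Irf7: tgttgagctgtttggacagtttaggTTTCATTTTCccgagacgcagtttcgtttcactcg
Gbp2: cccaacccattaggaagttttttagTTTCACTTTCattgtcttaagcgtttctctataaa
Rsad2: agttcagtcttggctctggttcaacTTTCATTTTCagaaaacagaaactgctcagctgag

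In GRCr8 the Bst2 window lay at chr16:18255061-18255120 on the minus strand, that of Oas1a at chr12:41330403-41330462 on the plus strand and that of Socs1 at chr10:5389445-5389504 on the plus strand. The Irf7 window lay at chr1:205800058-205800117 (minus), the Gbp2 window at chr2:234005671-234005730 (plus) and the Rsad2 window at chr6:48788233-48788292 (minus). In all 6 the capitals lie upstream of the annotated gene start. They spanned bases 131 to 116 before the start in Bst2, 41 to 26 in Oas1a, 107 to 92 in Socs1, 69 to 60 in Irf7, 31 to 22 in Gbp2 and 147 to 138 in Rsad2. Eif2ak2, Ifit3 and Isg20, also measured, had a core ending 7, 35 and 83 bases before the start. Irf1 and Irf9 held a GAS core and no ISRE core. The map of motif positions gives every match among the members, including those of genes not analysed on the array.

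**Figure D1:**
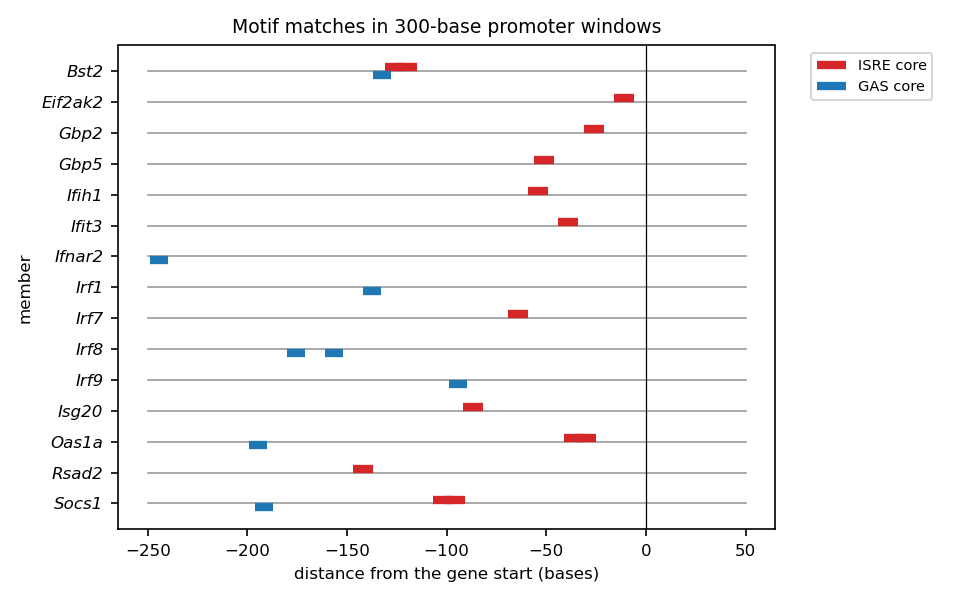
Positions of the ISRE core and the GAS core in the promoter windows of the members that held a match, with distance from the gene start in bases on the horizontal axis and 1 line per gene. The ISRE cores of Gbp2 and Eif2ak2 lie within 31 bases of the start, and that of Rsad2 lies 147 to 138 bases before it.

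A probe was called measured when the scanner software rated the signal of both pools well above background on both arrays, that is in all 4 channels. This held for 25 of the 32 member probes, from 22 genes, and for 15386 of all 41009 probes, and 44.8% to 50.3% of all features were well above background in a given channel. No member feature was saturated. Signals are the deposited processed signals, dye-normalised by LOWESS, in arbitrary units. Each LO/control log2 ratio was split into an LO part, the mean of both arrays, and a dye part, the half-difference between the arrays, positive where Cy5 was brighter. The error given after ± is propagated from the software's modelled error of each array's log ratio, with 1 dye swap behind every value. It is technical only and is not a spread observed between spots. Over all measured probes it was never below 0.144, so a smaller LO part could not exceed it. A ratio in whole blood cannot tell fewer cells of a type from less RNA per cell.

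The LO parts of the members centred on 0. Over the 25 measured probes the median LO part was -0.01 (range -0.36 to 0.34, SD over probes 0.13), beside a median of -0.00 and an SD of 0.12 over all 15386 measured probes. In size, the LO part had a median of 0.06 among members and 0.06 among all probes. It was smaller than its error in 22 of 25 member probes and exceeded it for 3, those of Ifngr1, Oasl and Gbp2, as it did for 11.0% of all measured probes. The LO part was at least 1.2-fold higher for 1 member probe, Oasl (2.35% of all measured probes), and at least 1.2-fold lower for 1, Ifngr1 (2.75%). With each array centred on its median and no LOWESS step, the calls over all probes were 280 higher and 603 lower, in place of 362 and 423.

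LO was higher on both arrays for 4 of the 25 probes, those of Mx1, Oasl and Gbp2 and 1 of Ifit2 (11.7% of all measured probes). It was lower on both for 2, those of Ifngr1 and 1 of Eif2ak2 (12.7%). The signals of both pools did not overlap for 4, those of Ifngr1, Oasl and Gbp2 and 1 of Ifit2 (13.3%). These shares of 25 lie near those of the whole array.

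For the remaining 19 of 25 measured probes the ratio changed sign between arrays, which by definition is where the dye part exceeds the LO part. The same held for 75.6% of all measured probes. The dye part was at least 1.2-fold towards Cy5 for 4 member probes, those of Jak2, Irf1 and Ifit3 and 1 of Stat3 (15.9% of all measured probes). Towards Cy3 it reached 1.2-fold for 5, both of Bst2, 1 each of Stat3 and Usp18, and that of Socs3 (14.3%). The LO/control ratios of both arrays correlated negatively across probes, with a Pearson r of -0.70 over all measured probes and -0.65 over the members. These probes share the same 2 pools and labelling reactions, and the order of the dyes is known only from the labels and methods.

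**Figure D2:**
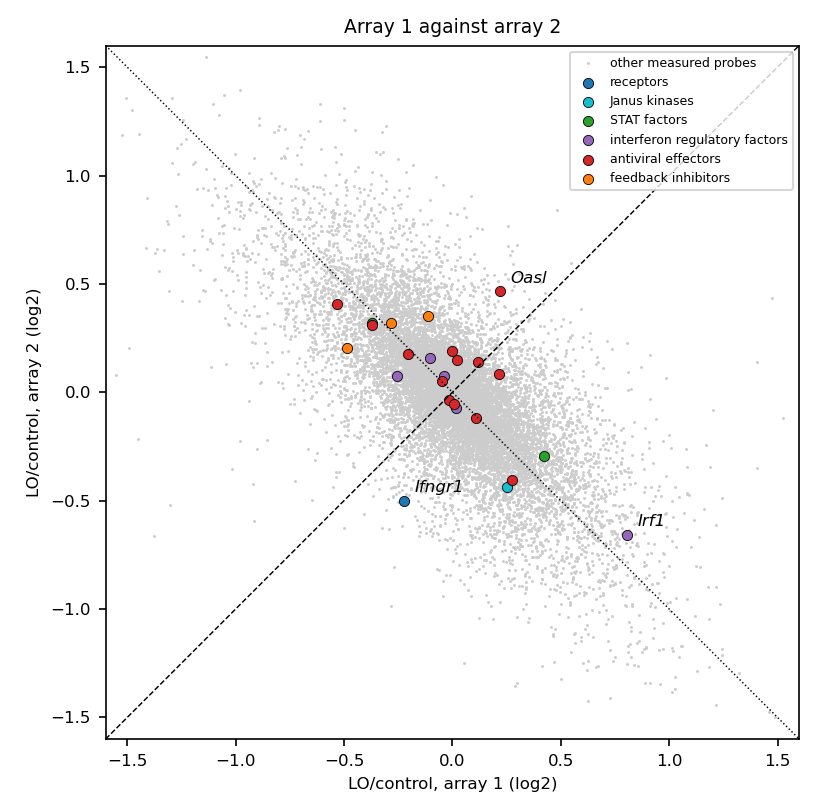
LO/control log2 ratio of each measured probe on array 1 (horizontal) and array 2 (vertical), members coloured by role and all other measured probes in grey, with 4 probes beyond the axis limit of 1.6 not drawn. Probes on the dotted line follow the dye and probes on the dashed line follow LO: Irf1 lies near the first, whereas Oasl and Ifngr1 lie in the quadrants where both arrays have the same sign.

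A Feature Extraction p under 0.01, required here on both arrays as a reading of the methods, was met in the same LO direction by 0 of the 32 member probes, measured or not (0.0219% of all probes, 9 of 41009). It was met towards the same dye by 1 member probe, a probe of Eif2ak2 (2.64%, 1082 of 41009). This p rests on an error model of single spots and is no test between groups of rats. Were the labels of 1 array exchanged, the LO part and the dye part of every probe would trade places, and these counts with them, which was not tested.

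Both ligands were dim. Ifng, the type II interferon made mainly by T cells and natural killer cells, was printed on 10 spots, of which 2 were left out as flagged. Its mean signal in the LO pool was 16.7 on array 1 and 67.3 on array 2, and in the control pool 46.3 and 32.5. The LO pool was well above background on array 2 only, in 7 of 8 spots, and the control pool in 1 of 8 spots on array 1 and none on array 2. LO/control was below 1 on 8 of 8 spots of array 1 and above 1 on 8 of 8 spots of array 2, so the brighter pool was in each case the one labelled with Cy3. No fold is given, because raising the dim pool to the background limit left a ratio below 1. Ifnb1, a type I interferon, gave 27.0 and 30.3 in the LO pool and 24.7 and 17.2 in the control pool, none of them well above background.

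Ifngr1, the ligand-binding chain of the interferon gamma receptor, had the lowest LO part of the members. Its signal was 172 on array 1 and 163 on array 2 in the LO pool, against 200.1 and 231 in the control pool. Both LO values lay below both control values, at log2 ratios of -0.22 and -0.50. The LO part was -0.36 ± 0.18, or 1.28-fold lower with LO, and exceeded its error, as did that of 11.0% of all measured probes. With normexp background correction and loess it was -0.07. The signals of Ifngr1 were low, in the range of those of Krt5, a marker gene of tissues other than blood. The measured leukocyte markers lay on both sides of 0, none past 1.2-fold. Those of monocytes had an LO part below 0 for 5 of 5 measured probes (-0.20 to -0.06, median -0.13). Of these, only Lyz2 and Csf1r were lower on both arrays, and Cd68, Cx3cr1 and the measured probe of Cd14 changed sign between arrays. Another Cd14 probe, well above background only in the LO pool of array 2, was higher with LO on both arrays (LO part 0.38). Natural killer cell markers had an LO part below 0 for 5 of 6 (-0.17 to 0.01), with Ncr1, Klrb1a and Prf1 lower on both arrays. Those of neutrophils and T cells were above 0 for 5 of 5 and 4 of 4, as was the 1 measured B cell marker, Cd79b (0.10). The summed signal of all 6 monocyte probes was 28628 and 30832 in the LO pool and 33211 and 34542 in the control pool, and each of the 5 marker genes had a measured probe. Most of this sum was Lyz2, at 25686 and 27277 in the LO pool and 29739 and 31001 in the control pool. The summed signal of the natural killer cell probes was 8799 and 7986 against 8771 and 8565. The part of these markers in the Ifngr1 ratio was not tested.

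Jak2, the kinase bound to the second chain of that receptor, had an LO part within its error. It gave 320.2 and 257 in the LO pool and 269 and 348 in the control pool, so that both pools overlapped. The ratio followed the dye, at 0.25 on array 1 and -0.44 on array 2. The LO part was -0.09 ± 0.16 and the dye part 0.35, or 1.27-fold towards Cy5. Jak2 was printed on 10 spots, and LO was higher in 10 of 10 on array 1 and lower in 10 of 10 on array 2. Over those spots the LO part ranged from -0.20 to 0.09 (SD 0.083), and the dye part had an SD of 0.052. Of the 10 spots 9 had an LO part below 0, but they share 1 pair of pools and are not replicates of the comparison.

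Of the STAT factors, Stat2, the partner of Irf9 in the ISRE-binding complex, was near background. It gave 47.7 and 72.2 in the LO pool, neither well above background, and 72.5 and 73.4 in the control pool, well above background on array 2 only. With the LO pool raised to the background limit, control exceeded LO 1.21-fold on average over both arrays. This is no lower bound, because the control signal of array 1 was itself not well above background. On array 2, the only 1 with the control well above background, both pools were nearly equal, so the value comes from the dim signals of array 1. Stat3, which also relays cytokine signals outside the interferon pathway, had 2 probes with opposite dye parts. Its first probe gave 394 and 534 in the LO pool and 511 and 429 in the control pool, with an LO part of -0.03 ± 0.15 and a dye part of -0.35. Its second, on 10 spots, gave 405 and 338 against 303 and 413, with an LO part of 0.06 ± 0.16 and a dye part of 0.36. On a single array these probes of 1 gene would have given opposite directions, and in the LO part they differed by less than either error. Over the 10 spots of the second probe the LO part had an SD of 0.081, with LO higher in 10 of 10 on array 1 and lower in 10 of 10 on array 2.

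**Figure D3:**
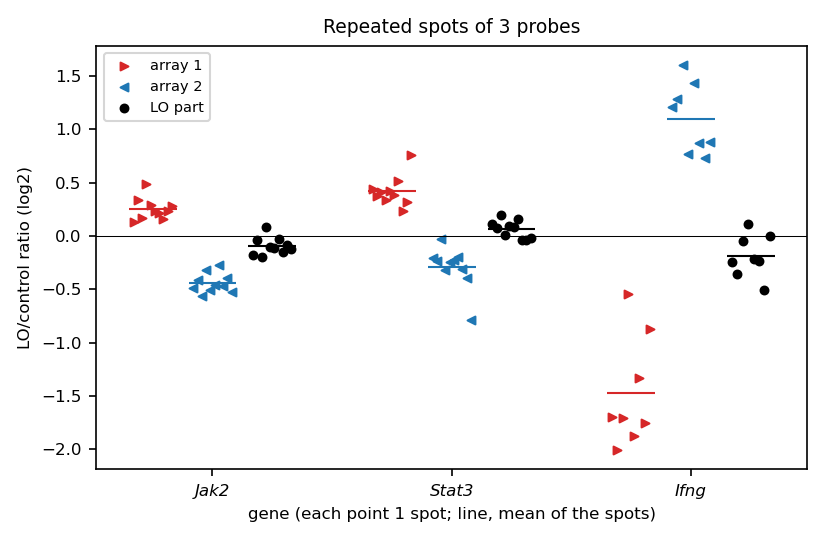
LO/control log2 ratio of each repeated spot of Jak2, Stat3 (second probe) and Ifng on array 1, on array 2 and as the LO part, with a line at the mean of the spots. For all 3 genes every spot changed side between the arrays, and the LO part was below 0 on 9 of 10 spots of Jak2 and above 0 on 7 of 10 of Stat3, whereas the spots of Ifng, mostly not well above background, show only on which side of 0 each array fell.

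The 5 interferon regulatory factors found were all measured, with LO parts from -0.09 to 0.07. Irf1, an activator induced by interferon gamma, had the largest dye part of the measured members. It gave 171 and 128 in the LO pool and 97.7 and 201 in the control pool. The log2 ratio was 0.81 on array 1 and -0.66 on array 2, and each pool was the brighter where it carried Cy5. The LO part was 0.07 ± 0.20, beside a dye part of 0.73 (1.66-fold towards Cy5). Irf2, which competes with Irf1 for the same sites, gave 697 and 673 in the LO pool and 688 and 707 in the control pool (LO part -0.03 ± 0.15).

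Irf3 and Irf7, which turn on interferon genes after a virus is sensed, had LO parts close to 0. Irf3 gave 3943 and 4204 in the LO pool and 4229 and 3772 in the control pool, with an LO part of 0.03 ± 0.14. Irf7 gave 100148 and 102140 with LO and 102969 and 96918.5 in the control, with an LO part of 0.02 ± 0.14. In both, the signals of the pools overlapped. Irf9, the DNA-binding subunit of the STAT and IRF complex, gave 128 and 164 in the LO pool and 153 and 155 in the control pool, with an LO part of -0.09 ± 0.19.

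The antiviral effectors were represented by 12 of 14 genes, with 13 measured probes at a median LO part of -0.01 (-0.07 to 0.34). Oasl, a member of the oligoadenylate synthetase family of RNA-sensing antiviral proteins, had the highest LO part of the measured members. Its signal was 118 and 157 in the LO pool and 102 and 113 in the control pool, and the pools did not overlap. The log2 ratio was 0.22 on array 1 and 0.47 on array 2, and the LO part 0.34 ± 0.20, or 1.27-fold higher with LO. After normexp correction and loess it was 0.17. The signals of Oasl were low, in a range that overlapped that of Gfap, a marker gene of tissues other than blood. Measured markers of neutrophils (5 of 5 probes above 0, 0.01 to 0.12) and of T cells (4 of 4, 0.05 to 0.11) were on the same side and none was past 1.2-fold, whereas those of monocytes (5 of 5 below 0) and natural killer cells (5 of 6) were on the other. Their summed signals were 32014 and 32655 in the LO pool against 31427 and 29911 for neutrophils, and 38013 and 39847 against 37021 and 37213 for T cells, with Cd4 not measured in all channels. Of the measured neutrophil and T cell markers, only S100a8, Cxcr2, Cd3d and Cd3g were higher with LO on both arrays, and the others changed sign. The 1 measured B cell marker, Cd79b, was also higher on both arrays (LO part 0.10). The part of these markers in the Oasl ratio was not tested.

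Oas1a, which makes the oligoadenylates that activate RNase L, had an LO part within its error. It gave 6751 and 7153 in the LO pool and 6755 and 6259 in the control pool, with an LO part of 0.10 ± 0.14, and the LO value of array 1 fell inside the control range. Its promoter held the double ISRE core shown above, whereas the window of Oasl held none.

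Gbp2, an interferon-induced GTPase that attacks pathogen-containing vacuoles, was higher with LO on both arrays. It gave 2215 and 2324 in the LO pool and 1908 and 2192 in the control pool, without overlap. The LO part was 0.15 ± 0.14, or 1.11-fold, just above its error. Ifit2, which restrains translation of viral RNA, had 2 probes. The first gave 50.9 and 48.3 in the LO pool and 62.2 and 46.9 in the control pool, none well above background. The second gave 333 and 326 in the LO pool against 307 and 296, again without overlap, at an LO part of 0.13 ± 0.16. Ifit3, of the same family, gave 271 and 211 in the LO pool and 225 and 279.7 in the control pool. Its ratio of 0.27 on array 1 and -0.41 on array 2 left an LO part of -0.07 ± 0.16 beside a dye part of 0.34.

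The dynamin-like GTPases Mx1 and Mx2, which block viral replication, were weakly detected. Mx1 gave 135 and 128 in the LO pool and 133 and 115 in the control pool, with an LO part of 0.09 ± 0.21 and overlapping pools. Mx2 gave 36.6 and 83.7 in the LO pool, well above background on array 2 only, and 54.8 and 30.3 in the control pool, not well above background on either array. With the control pool raised to the background limit, LO was 1.01-fold higher on average over both arrays. This too is no lower bound, since on array 1 neither pool was well above background, and there the LO pool gave the lower signal.

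Rsad2 (viperin), which makes an antiviral nucleotide, gave 210547 and 179278 in the LO pool and 195330 and 194876 in the control pool on its first probe. On its second probe it gave 11757 and 11002 in the LO pool and 11709 and 11434 in the control pool. The LO parts of these probes were -0.01 ± 0.14 and -0.02 ± 0.14, and pools overlapped on both. Isg20, an exonuclease that degrades viral RNA, gave 16768 and 17960 in the LO pool and 19296 and 15868 in the control pool (LO part -0.01 ± 0.14). Ifi35, an interferon-induced regulator of inflammatory signalling, gave 477 and 479 against 492 and 462 (LO part 0.00 ± 0.15).

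Bst2 (tetherin), which holds budding virus at the cell surface, followed the dye on both of its probes. The first gave 774 and 1096 in the LO pool and 1121 and 826 in the control pool. The second gave 367 and 481 in the LO pool and 474 and 387 in the control pool. Each pool was brighter where it carried Cy3, with dye parts of -0.47 and -0.34, and the LO parts were -0.06 ± 0.15 and -0.03 ± 0.15.

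Eif2ak2, the RNA-activated kinase PKR that halts translation, differed between its probes. The first gave 595 and 641 in the LO pool and 601 and 658 in the control pool, at an LO part of -0.03 ± 0.15 and a dye part of 0.01. The second gave 125 and 48.5 in the LO pool and 42.6 and 147 in the control pool, and was well above background only where the pool carried Cy5. No fold is given, since each pool was dim on 1 array. This probe was the single member past the Feature Extraction p on both arrays, towards the dye.

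**Figure D4:**
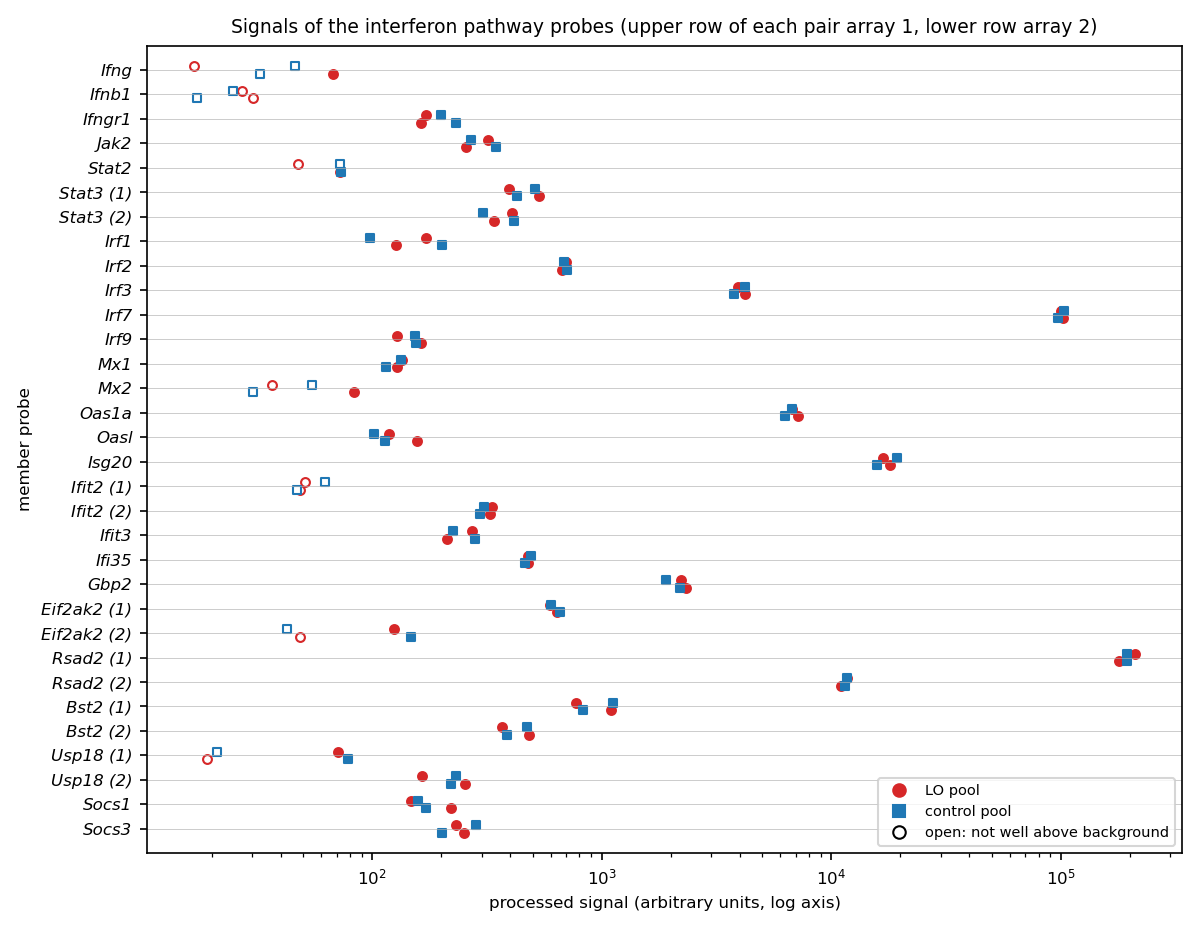
Processed signal of every member probe in the LO pool (red circles) and the control pool (blue squares) on a log axis in arbitrary units, array 1 above array 2 in each pair, with open symbols where the signal was not well above background. The pools swap sides between arrays for most probes, such as Irf1 and Bst2. They stay on their own sides for others, among them Ifngr1, Oasl, Gbp2 and the second probe of Ifit2.

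The feedback inhibitors gave 3 measured probes with LO parts from -0.14 to 0.12. Usp18, a protease that strips the ubiquitin-like Isg15 from proteins and shuts off the type I receptor, had 2 probes. The first gave 70.7 and 19.1 in the LO pool and 21.1 and 78.2 in the control pool, well above background only in Cy5, and no fold is given. The second gave 165 and 253 in the LO pool and 232 and 220.2 in the control pool, with an LO part of -0.14 ± 0.17 and a dye part of -0.35. As in Stat3, the probes of Usp18 leaned towards opposite dyes.

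Socs1 and Socs3, which bind and restrain Janus kinases and cytokine receptors, were both measured. Socs1 gave 147 and 219.6 in the LO pool and 159 and 172 in the control pool, with an LO part of 0.12 ± 0.19. Socs3 gave 232 and 252 in the LO pool and 282 and 202 in the control pool, with an LO part of 0.02 ± 0.17. In both genes LO was the lower pool on array 1 and the higher on array 2.

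**Figure D5:**
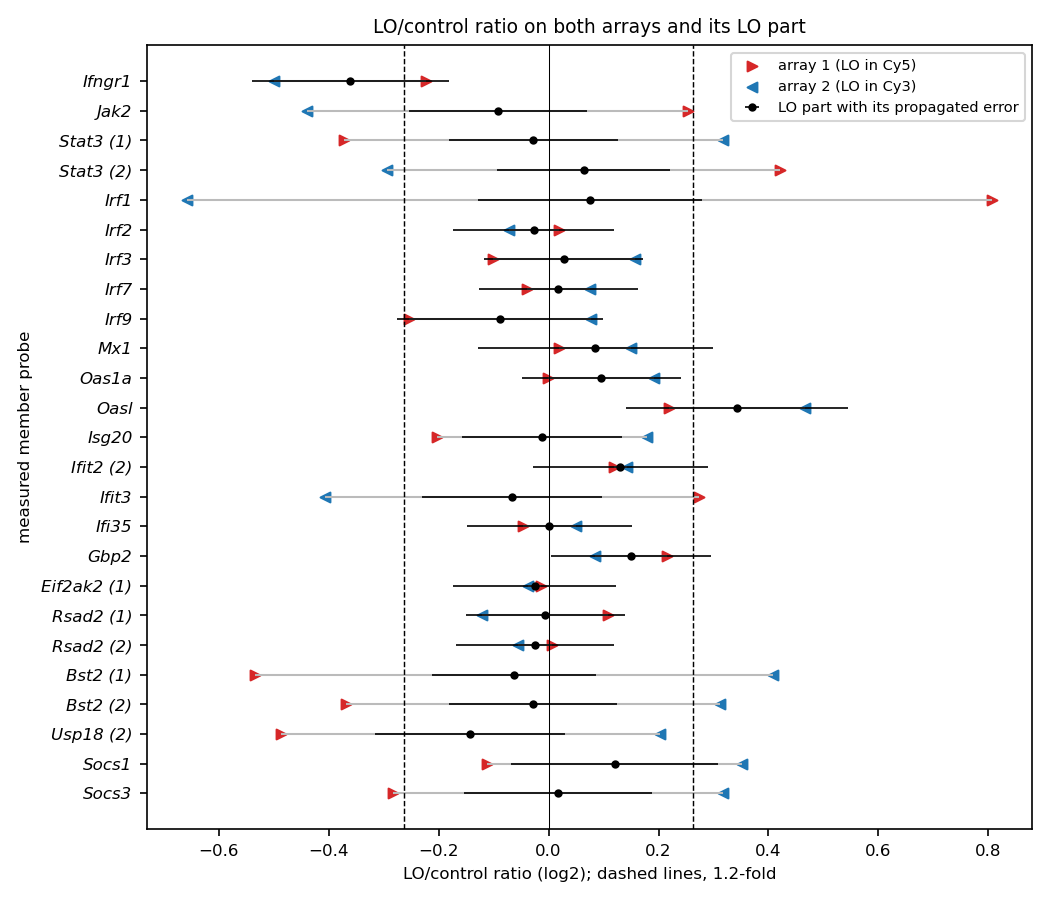
LO/control log2 ratio of the 25 measured member probes on array 1 (red) and array 2 (blue), joined by a grey line, with the LO part and its propagated error in black and dashed lines at 1.2-fold. The black points of Ifngr1 and Oasl alone lie beyond the dashed lines, and the widest grey line is that of Irf1.

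Read beside the promoter windows, the LO parts of the genes with an ISRE core centred on 0, as did those of all measured probes. In 11 measured probes of 9 genes with a core, the LO part had a median of -0.01 (-0.07 to 0.15), and none reached 1.2-fold in either direction. In 11 measured probes of 10 genes whose window held none, the median was 0.02 (-0.36 to 0.34), with Oasl higher and Ifngr1 lower. Over all measured probes 2.35% were called higher and 2.75% lower, shares at which few or no calls fall in lists this short. These counts therefore do not set genes with a core apart from those without. The measured probes of Irf2, Ifit2 and Usp18 had no window and are in neither list.

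Other genes of the pathway were taken from a list of 75, of which 35 were found and 28 had a measured probe (30 probes). Among these 30 probes 0 were at least 1.2-fold higher (2.35% of all measured probes) and 0 at least 1.2-fold lower with LO (2.75%), shares at which few or no calls fall in so short a list. The median LO part was 0.02 (-0.14 to 0.13). The largest in size were those of a probe of Ptpn11, a phosphatase of cytokine receptors (-0.14), and of Stat6, which relays interleukin 4 (-0.13). Next were Trim5, a restriction factor (0.13), a probe of Sp110, a nuclear body protein (0.13), and Ifi44l, an interferon-induced gene (-0.10). The Feature Extraction p was met on both arrays in the LO direction by 0 of the 37 probes (0.0219% of all probes) and towards the same dye by 4 (2.64%). Of these 4, Cxcl10 and Pias3 went towards Cy5. Cxcl9 and Ciita, both well above background in all 4 channels, went towards Cy3, with dye parts of -0.75 and -0.95. The signal of Cxcl10, a chemokine classically induced by interferon gamma, was 114 and 14.4 in the LO pool and 11.5 and 98.6 in the control pool. It was well above background in the Cy5 channels only.

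The labelled tissue was checked against blood cell markers. Every red cell (4), platelet (5), neutrophil (5), monocyte (5) and natural killer cell (6) marker gene found had a measured probe, as had 4 of 5 T cell genes and the 1 B cell gene found. Of 7 genes of tissues other than blood, Krt5, Gfap and 1 probe of Alb were also well above background in all 4 channels, whereas Apoa1, Ins1, Myh6 and Umod were not. The summed signal of that list was 678 and 703 in the LO pool and 673 and 580 in the control pool.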

How the data were processed

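Total RNA of rat whole blood, pooled by group, was measured on 2 two-colour arrays on 1 slide, grouped by the labels as 1 dye swap. The authors extracted signals with Agilent Feature Extraction 11.0.1.1. The deposited output holds intensity columns (median, local background, background-subtracted and LOWESS-normalised signals), the log10 ratio of Cy5 over Cy3 with its error, the p-value of the spot error model and quality flags. A deposited value table of unstated scale equalled the log10 ratio of the processed signals in 43379 of 43379 features on both arrays (tolerance 0.001 log2; medians 0.0229 and 0.0157 on the log10 scale). It differed from the log ratio column in 6390 and 5726 features. There were 0 columns of other samples.

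Log2 ratios of LO over control were used throughout. Features of control type and 338 features flagged as non-uniform or population outliers on either array were left out, spots of a probe were averaged, and its p was the median over spots. The LO part was the mean and the dye part the half-difference of both ratios. For a pool not well above background on either array, a limit was computed on log2 signals after Aquantile normalisation in limma, where the dim pool was set to the channel's lowest signal that passed the background rating. The brighter pool was used as it stood, also on an array where it was dim, so such a limit is no strict lower bound. A fold is left out where neither pool was above background, where each was dim on 1 array, or where that limit fell below 1. A gene with 2 probes is given by both. The number of arrays limits the precision, and no test between LO and control was made. The split was checked on simulated data.

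Every member was named, and of the other pathway genes up to 5 with the largest LO part, apart from Cxcl10, Pias3, Cxcl9 and Ciita, named after their values were seen. The members and lists were chosen with earlier results of these data known. Symbols (10767 probes, 8898 genes) and promoter windows came from RefSeq tables of GRCr8. The array design is tied to rn4. Normexp correction (offset 50) with loess was planned on mean signals and run on medians, which the files hold. Other alternatives were median centring, the value table, filters, flags, fold and p thresholds, 1 value per gene and each array alone. The software was limma 3.58.1 in R 4.3.3 and, in Python 3.11.15, pandas 2.3.3, numpy 2.4.6, matplotlib 3.10.9 and scipy 1.17.1.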

Additional observations from a re-analysis of the deposited data

How the results depend on the processing

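With median centring and no LOWESS the median LO part of the measured members was -0.10, beside -0.07 over all probes, and the median size of the dye part 0.37. Normexp correction with loess left 0 member probes 1.2-fold higher and 0 lower and a dye part of 0.073; over all probes it left 6 and 21. With no filter on dim probes 3 were higher and 2 lower and the dye part was 0.21, and with 1 channel above background on each array it was 0.17. A fold limit of 1.1 gave 2 higher and 2 lower, and one of 1.5 gave 0 and 0. Each array alone gave a median from -0.014 to 0.084, 3 to 6 probes higher, 5 to 5 lower and 2 to 2 past the p threshold, since dye and LO then cannot be separated. The value table, keeping flagged spots and 1 value per gene moved none of these counts by over 1.5 times. Ifngr1 and Oasl, picked from these data for passing 1.2-fold, kept their direction in the alternatives run, most of which could not reverse it. The value table and flagged spots left their values unchanged, and each array alone returned a ratio of known sign. Median centring gave -0.38 for Ifngr1 and 0.30 for Oasl, and normexp with loess gave -0.07 and 0.17. No paired analysis was possible because the design holds 1 replicate of the comparison. Signal over background limits the 5 member probes above it in some channels and the 2 above it in none, and no value speaks of the spread between rats.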
